A study of Danio rerio and Aquarana catesbeiana with 12 samples.

Results

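The genes described here encode the proteins of the cytosolic ribosome, measured in the retinal pigment epithelium (RPE) of zebrafish, the pigmented cell layer behind the photoreceptors. Members were chosen by gene symbol alone: symbols that begin with rpl or rps followed by a digit, the rplp genes of the ribosomal stalk and rpsa, without the rps6k kinase genes. In all, 73 of the 18315 transcript records of the zebrafish table fitted the rule. They carry 71 symbols, since rps24 and rpl22l1 have 2 records each, and the more abundant record stood for the gene. By role, 35 genes belong to the large subunit, 30 to the small subunit and 4 to the stalk. The other two do not encode parts of the mature ribosome although their symbols fit the rule. They are rps19bp1, for a protein that binds the ribosomal protein S19 in human cells, and rpl7l1, a relative of rpl7 whose human protein is found on precursors of the large subunit.

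RPE was dissected from zebrafish treated for 3 weeks with thyroid hormone (3 libraries) and from zebrafish given the vehicle (3 libraries). The form and dose of the hormone, the strain, the age and the number of fish per library are not stated in the labels. Nothing in the labels ties a replicate to its own fish. The p-values below therefore reflect differences among these particular libraries, perhaps only technical ones. All 6 libraries were made with an amplification kit and sequenced in 1 lane. The bullfrog RPE samples of the series were not analysed here.

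Ribosomes translate mRNA into protein. The small subunit reads the codons, the large subunit forms the peptide bonds, and the stalk of the large subunit recruits the translation factors. Each subunit needs its proteins in fixed ratios, and cells keep the mRNAs of these proteins abundant and adjust them together. Many of these mRNAs start with a pyrimidine-rich tract (a terminal oligopyrimidine or TOP motif), through which growth signals set how much of them is translated. RPE cells depend on steady protein synthesis, since they digest photoreceptor outer segments every day.

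Library totals were 6647597 to 12530697 counts with hormone and 10582772 to 11739178 counts with vehicle, with hormone replicate 1 the lowest. Of 13 RPE markers 9 had a record, and their summed level was 20312 to 56194 CPM with hormone and 16778 to 17349 CPM with vehicle. CPM are counts per 1000000 counts of the library, scaled by the trimmed mean of M-values (TMM). The dissections also held retina: 10 of 14 rod markers summed to 44054 to 54240 CPM with hormone and 64374 to 77439 CPM with vehicle, and 16 of 18 cone markers to 10274 to 25059 CPM with hormone and 11917 to 18254 CPM with vehicle. For 18 of 20 markers of inner retina and Muller glia the sum was 1097 to 2171 CPM with hormone and 1146 to 1768 CPM with vehicle. No measured marker of these lists was at 0 in any library. In such bulk samples fewer cells of a type and less RNA per cell cannot be told apart.

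The 71 genes held 1.59%, 2.53% and 2.08% of all counts with hormone, against 2.10%, 2.03% and 2.49% with vehicle. The mean share was 2.07% ± 0.47 with hormone and 2.21% ± 0.24 with vehicle (SD, n = 3 each). The lowest and the highest share were both in hormone libraries, and the vehicle values lay between them. Large subunit and stalk genes together held 0.936%, 1.49% and 1.21% with hormone, against 1.22%, 1.18% and 1.44% with vehicle. Small subunit genes held 0.656%, 1.045% and 0.870% with hormone, against 0.882%, 0.851% and 1.04% with vehicle. Both subunits thus had their lowest share in hormone replicate 1.

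Per length of transcript, most of the genes were among the most abundant of the tissue. On the RPKM scale (counts per kilobase of record and per 1000000 counts, mean over the 6 libraries) 25 of the 71 ranked among the top 100 of all records and 66 among the top 500. Among the highest were rpl26, for a protein beside the exit tunnel of the large subunit, at 1154 RPKM, rps8a at 959, rps4x at 846 and rpl6 at 770. The median was 450.4 RPKM over the large subunit genes and 427 over the small subunit genes.

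At the other end of the RPKM scale stood rpl37, at 69.1, rps8b, at 58.5, rpl22l1, at 54.3, rpl7l1, at 5.76, and rps19bp1, at 5.47. The last pair, which are not parts of the mature ribosome, were also the lowest in the set. Among the ribosome genes, rps8b and rpl22l1 are the minor copies beside a more abundant one. The rpl37 record is 1124 bases long although its protein is small. For rps24 the record of 533 bases stood at 214 RPKM and the second, of 1571 bases, at 31.6 RPKM. For rpl22l1 the value of 54.3 RPKM is that of the record of 603 bases. The second rpl22l1 record, of 671 bases, stood at 43.2 RPKM.

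**Figure D1:**
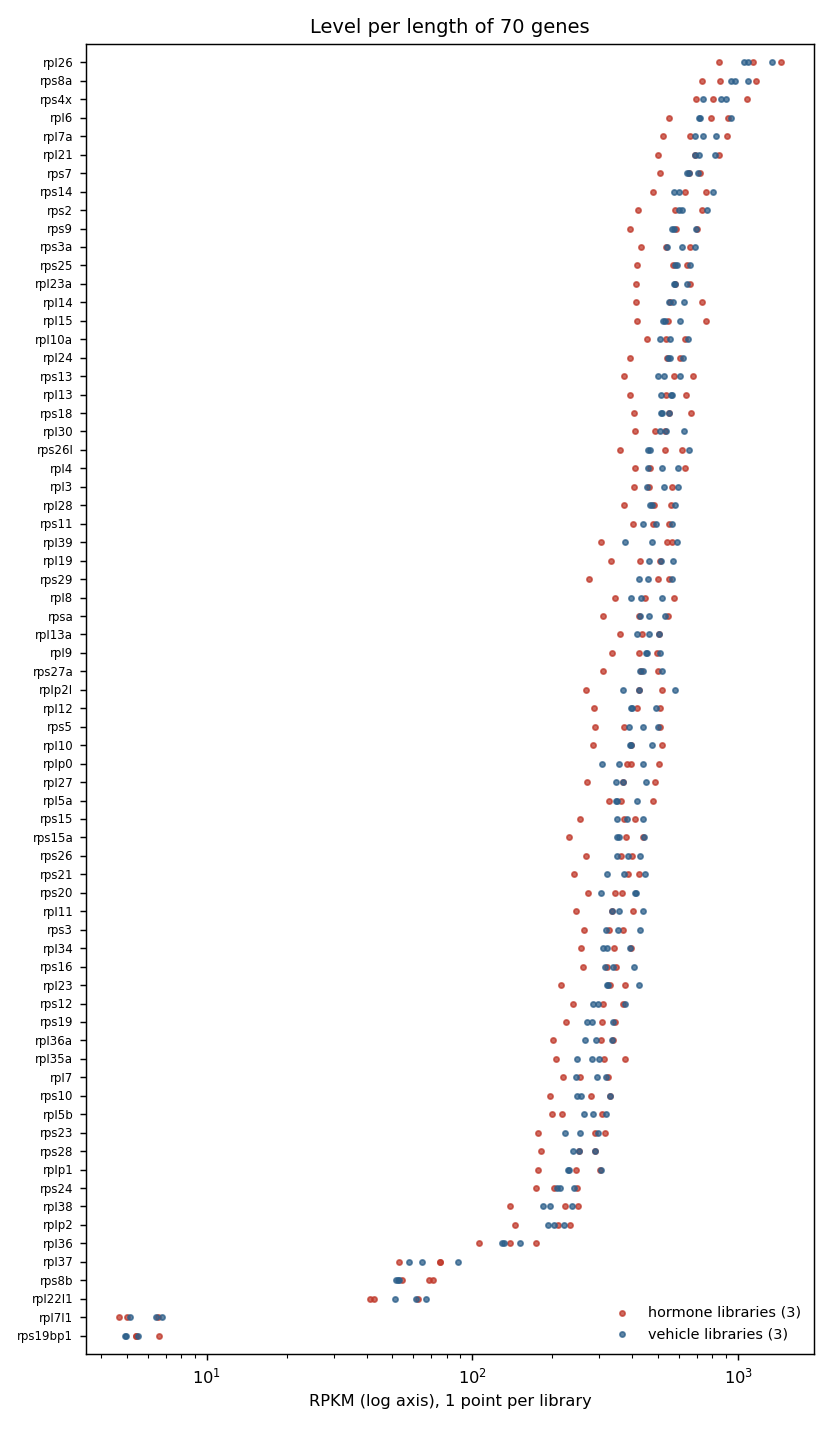
RPKM on a log axis for 70 of the 71 genes, ordered by mean, with 1 point per library (red hormone, blue vehicle). At the top stands rpl26 (1154 RPKM), and rpl37, rps8b and rpl22l1 (54.3 to 69.1 RPKM) and then rpl7l1 and rps19bp1 (5.76 and 5.47 RPKM) stand apart at the low end.

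The genes differed between libraries far more than between treatments, and they did so together. The median gene stood at 180.1, 331 and 313 CPM with hormone, against 252, 261 and 346 CPM with vehicle. Hormone replicate 1 held the lowest level of 67 of the 71 genes, while 27% of all records were lowest there. Vehicle replicate 3 held the highest level of 42 genes (19.9% of all records were highest there) and hormone replicate 2 that of 24 (19.7% of all records). The remaining 5 were highest in hormone replicate 3 (12.1% of all records). No gene of the set was highest in hormone replicate 1, where 28.6% of all records were highest.

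Set against each gene's own mean over the 6 libraries, the median deviation on the log2 CPM scale was -0.60, 0.30 and 0.20 with hormone, against -0.13, -0.094 and 0.32 with vehicle. The range from the 5th to the 95th percentile over the genes was narrow, from -0.77 to -0.29 in hormone replicate 1 and from 0.17 to 0.44 in vehicle replicate 3. Over all records the same range in hormone replicate 1 ran from -0.91 to 1.07. Within a group, the SD of log2 CPM was 0.39 for the median gene of the set, against 0.31 for the median of all records. For the median of the 12148 other records within the set's range of mean CPM it was 0.24. Once each library's median ribosomal protein level was subtracted, that SD was 0.084 for the set and 0.46 for all records. This subtraction uses the genes themselves and adds their shared variation to other records, so these SDs are not on an equal footing. It describes how closely the genes kept to a common level and is no test.

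**Figure D2:**
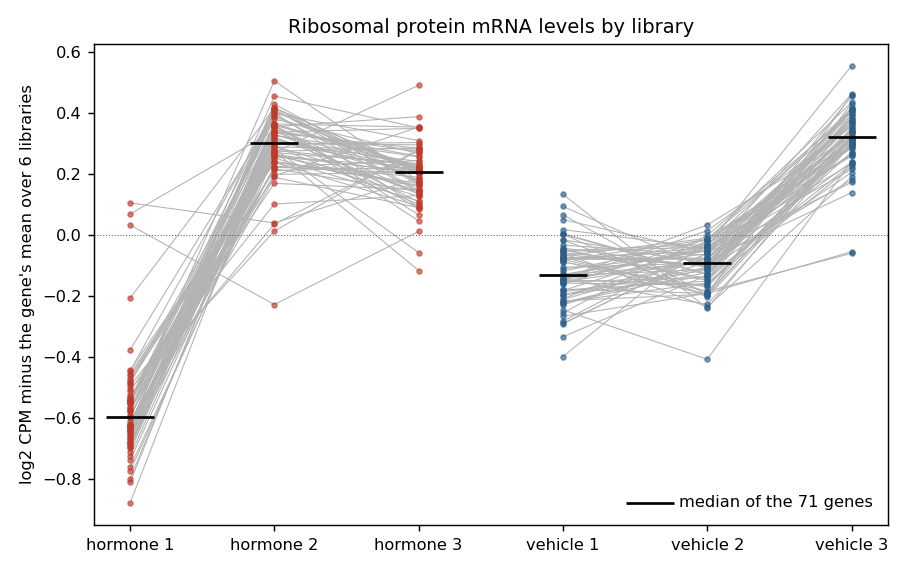
Each gene's log2 CPM minus its mean over the 6 libraries, with 1 point per gene and library (red hormone, blue vehicle), grey lines joining the same gene within a group, and black bars for the median of the 71 genes. Nearly all genes sit low in hormone replicate 1 (median -0.60) and high in hormone replicate 2 and vehicle replicate 3 (medians 0.30 and 0.32).

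In log2 CPM the common level ran opposite to the inner retina markers. The exact order depended on how the genes were summarised, and for the rod markers it did so strongly. The mean log2 CPM of the inner retina and Muller glia markers was 5.67, 4.15 and 4.48 with hormone and 5.37, 5.12 and 4.12 with vehicle. The median log2 CPM of the ribosomal protein genes was 7.49, 8.37 and 8.29 with hormone and 7.98, 8.03 and 8.43 with vehicle. Ordered by falling inner retina level, the 6 libraries were hormone 1, vehicle 1, vehicle 2, hormone 3, hormone 2 and vehicle 3, and this is also their order by rising ribosomal protein level. By summed inner retina markers hormone replicate 2 (1097 CPM) was lowest, below vehicle replicate 3 (1146 CPM). By rising share of all counts, the ribosomal protein genes had the order hormone 1, vehicle 2, hormone 3, vehicle 1, vehicle 3 and hormone 2. The RPE markers, at 8.27, 9.83 and 9.54 with hormone and 8.59, 8.67 and 8.75 with vehicle, were lowest in the same 3 libraries, but vehicle replicate 3 was not highest in them. Library total was also lowest in hormone replicate 1. The summed rod markers were 46775, 44054 and 54240 CPM with hormone and 69695, 64374 and 77439 CPM with vehicle. This sum was highest in vehicle replicate 3, where the ribosomal protein level was also highest. Their mean log2 CPM was 10.113, 9.43 and 9.71 with hormone and 10.08, 10.111 and 9.88 with vehicle. On that scale hormone replicate 1 was highest and hormone replicate 2 lowest. The mean log2 CPM of the cone markers was 9.70, 8.27 and 9.09 with hormone and 9.46, 9.21 and 8.75 with vehicle. The part of retina content and of depth in the level of these genes was not tested.

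With hormone against vehicle, none of the 71 genes passed the test, and their fold changes lay close to 0. The quasi-likelihood test of edgeR with Benjamini-Hochberg adjustment over all records at 0.05 called 1 of 18315 records (0.00546%), none of them a ribosomal protein gene. At an unadjusted p under 0.05 it had 1 of the 71, rps8b, where 7.02% of all records passed. DESeq2 called none of the 71 (1.59% of all records) and also had 1 at an unadjusted p under 0.05 (7.73% of all records). In the authors' deposited table none of the 73 records carries the mark of significance (0.934% of all records do), and their deposited p ranges from 0.177 to 0.9996, so none is under 0.05 (5.41% of all records are).

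The log2 fold changes, hormone over vehicle, ran from -0.23 to 0.35 with a median of -0.025, and the median over all records was 0.012. Of the 71 genes 66 lay within 0.2 of 0, as did 9412 of all 18315 records. Among the 12148 other records within the set's range of mean CPM, 7085 did. Signs were positive for 26 and negative for 45 genes, while 51.8% of all records were positive, and the 71 signs are not independent since the genes share the differences between libraries. With total count scaling 11 were positive. By subunit, 13 of 35 large subunit genes were positive (median log2 fold change -0.011), 10 of 30 small subunit genes (-0.046) and 2 of 4 stalk genes (-0.0013). The standard error of a gene's log2 fold change was 0.14 to 0.36. All 71 of the 95% intervals lay within a log2 fold change of 1 in either direction, with bounds of -0.95 for rplp2l and 0.90 for rpl39 at the extremes, and 70 held 0.

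Which library was left out decided the sign of nearly the whole set. Without hormone replicate 1, 68 of 71 log2 fold changes were positive (47.3% of all records) with a median of 0.20. Without vehicle replicate 3, 67 were positive (52.8% of all records) with a median of 0.15. Without hormone replicate 2, 4 were positive (52.4% of all records) with a median of -0.18. The fits without hormone replicate 3, vehicle replicate 1 and vehicle replicate 2 had 10, 10 and 13 positive genes (52.3%, 53.3% and 51.9% of all records). None of the 71 passed the edgeR test in any of these fits, including that without hormone replicate 1, which called 119 records (0.65%) elsewhere in the table. At an unadjusted p under 0.05 it had 3 of the 71 (15.2% of all records). The fit without vehicle replicate 3 had 1 (5.65%), and the fits without hormone replicate 2, hormone replicate 3, vehicle replicate 1 and vehicle replicate 2 had none (6.49%, 4.89%, 4.84% and 4.19%). With the inner retina level as a covariate, 8 of 71 were positive (50.2% of all records), the median was -0.11, and none passed while 496 records did (2.71%). At an unadjusted p under 0.05 that fit had 4 of the 71 (17.4% of all records).

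**Figure D3:**
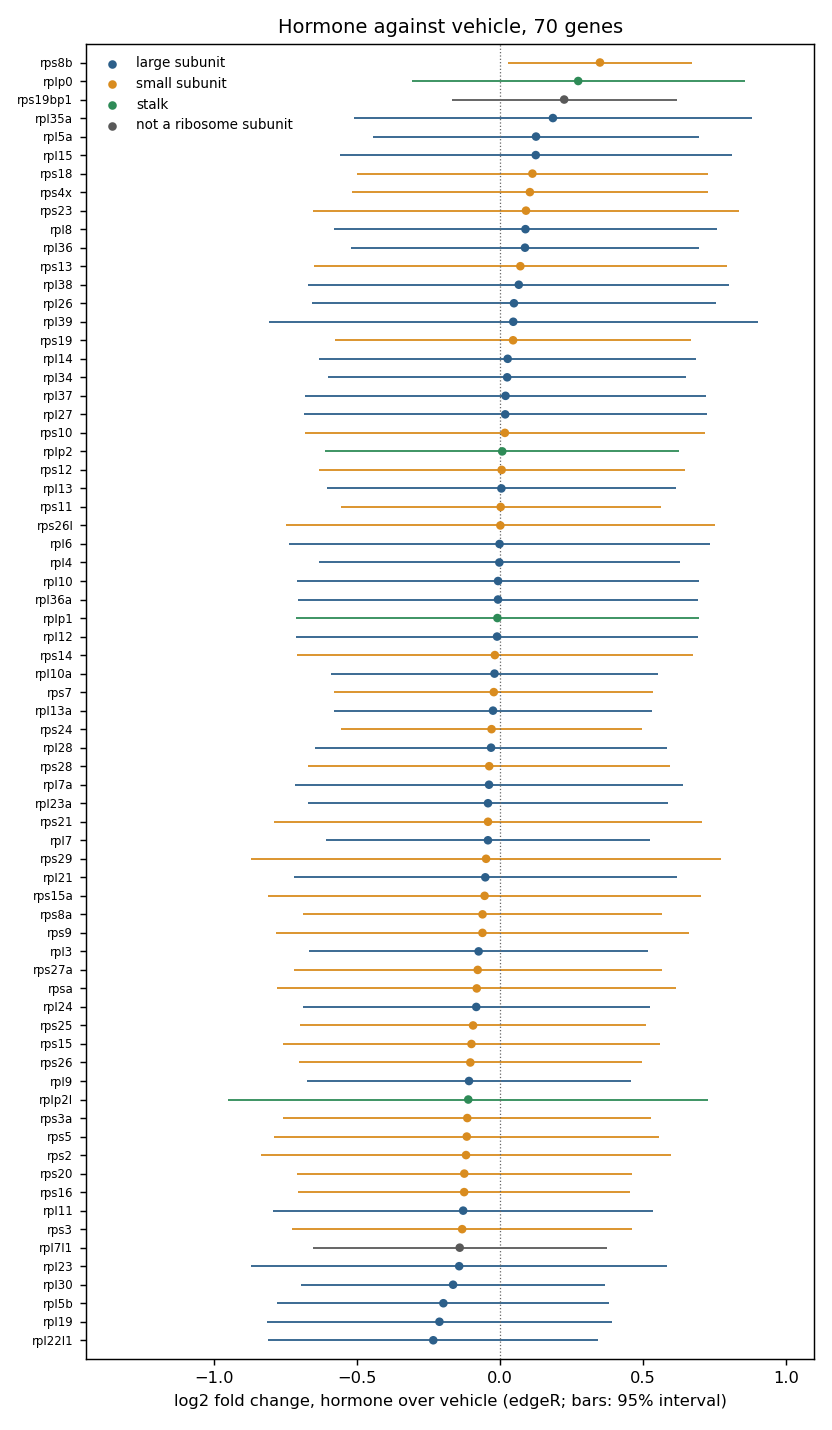
Log2 fold change, hormone over vehicle, of 70 of the 71 genes from the edgeR fit over all records (points), with 95% intervals (bars), coloured by role and ordered by size. The points run from -0.23 (rpl22l1) to 0.35 (rps8b), and the interval of rps8b alone leaves out 0.

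Among the small subunit genes the highest log2 fold change was that of rps8b, the minor of the 2 zebrafish genes for ribosomal protein S8. It stood at 42.2, 51.0 and 43.4 CPM with hormone and at 33.4, 35.2 and 38.7 CPM with vehicle, with every hormone library above the vehicle libraries. The means were 45.5 ± 4.81 with hormone and 35.8 ± 2.70 CPM with vehicle (SD, n = 3 each). The log2 fold change was 0.35 (SE 0.14), with an edgeR adjusted p of 0.663 and a DESeq2 adjusted p of 0.504. Apart from rps8b, the groups did not overlap in CPM for 1 more of the 71 genes, rps19bp1. Of all records 6.86% were apart with hormone above and 6.4% with hormone below, so 2 of 71 above and none below is no more than the table as a whole gives.

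The gene rps19bp1 stood at 7.87, 7.51 and 8.34 CPM with hormone and at 6.90, 6.405 and 6.998 CPM with vehicle (log2 fold change 0.22, SE 0.16). Its record had no match in current RefSeq and held only 59 to 91 counts per library. The gene was not low in hormone replicate 1, unlike the ribosome genes. The same held for rpl7l1, at 6.27, 5.20 and 6.18 CPM with hormone and 6.42, 5.32 and 7.70 CPM with vehicle (log2 fold change -0.14, SE 0.22). With rps8b, these were the genes of the set that lay above their own mean in hormone replicate 1.

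In the stalk, rplp0, for the protein that anchors the stalk on the large subunit, stood at 375, 577 and 501 CPM with hormone and at 365, 326 and 511 CPM with vehicle. Its groups overlapped, with a log2 fold change of 0.27 (SE 0.24). The genes for the paired acidic proteins that sit on this anchor lay nearer 0. For rplp1 the values were 81.1, 163 and 147 CPM with hormone and 112, 114 and 168 CPM with vehicle (log2 fold change -0.0098, SE 0.30). For rplp2 they were 55.4, 103 and 104 CPM with hormone and 81.2, 79.7 and 101 CPM with vehicle (log2 fold change 0.0072, SE 0.26).

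The second P2 gene, rplp2l, named rplp2b in current RefSeq, stood at 109, 248 and 224 CPM with hormone and at 158, 187 and 282 CPM with vehicle (log2 fold change -0.11, SE 0.35). It had the lowest value of all 3 acidic stalk genes' fold changes and the widest interval among them. In these acidic stalk genes hormone replicate 1 was the lowest library, while rplp0 was lowest in vehicle replicate 2. The small subunit gene rpsa, whose protein was first described as a laminin receptor, stood at 309, 637 and 546 CPM with hormone and at 483, 462 and 634 CPM with vehicle (log2 fold change -0.082, SE 0.29).

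Of the large subunit genes, rpl35a stood at 77.8, 164 and 153 CPM with hormone and at 97.9, 115 and 135 CPM with vehicle (log2 fold change 0.18, SE 0.29). The gene rpl15 had a log2 fold change of 0.12 (SE 0.29). The lowest log2 fold changes were those of rpl22l1 at -0.23 (SE 0.24), rpl19 at -0.21 (SE 0.25), rpl5b at -0.20 (SE 0.24), rpl30 at -0.16 (SE 0.22) and rpl23 at -0.14 (SE 0.30). The gene rpl22l1 encodes a relative of the L22 protein that can take its place in mouse ribosomes. It stood at 22.0, 39.0 and 29.7 CPM with hormone and at 34.3, 29.8 and 42.8 CPM with vehicle. The gene rpl19 stood at 225, 401 and 374 CPM with hormone and at 364, 338 and 457 CPM with vehicle. In both the groups overlapped.

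The common pattern was also that of the most abundant genes. The gene rpl26 stood at 411, 824 and 717 CPM with hormone and at 558, 555 and 776 CPM with vehicle (log2 fold change 0.048, SE 0.30). The log2 fold changes of rps8a, rps4x and rpl6 were -0.062, 0.10 and -0.0022, the last being 0.0020 with the RLE scaling of edgeR. For each of these genes the hormone libraries spanned a wider range than the vehicle libraries, with replicate 1 at the bottom. Although its RPKM was low, rpl37 had the same pattern, at 52.8, 87.4 and 97.7 CPM with hormone and 60.6, 69.7 and 104.9 CPM with vehicle (log2 fold change 0.019, SE 0.29).

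Levels relative to the median gene of the set are described here without a test, so differences between the groups on this scale may be chance. The shared part drops out only for genes that follow it. In hormone replicate 1 rps8b did not, and rplp0 did only in part. Their deviations there were 0.067 and -0.21 on the log2 CPM scale, against a median of -0.60 over the set. Every hormone library exceeded the vehicle libraries for 10 of 71 genes on this scale, where 6.07% of all records did, and below for 1 gene, rpl19, where 3.47% of all records did. The 10 were rps8b, rplp0, rpl5a, rpl15, rps18, rpl8, rpl36, rps19, rpl26 and rpl34. This scale removes the variation that these genes share and adds it to other records, so the 2 shares are not on an equal footing. On this log2 scale rplp0 stood at 1.06, 0.80 and 0.68 with hormone and at 0.54, 0.32 and 0.56 with vehicle, a mean difference of 0.37. For rps8b it was -2.09, -2.69 and -2.85 with hormone and -2.91, -2.88 and -3.15 with vehicle, a mean difference of 0.44. For rpl19 it was 0.32, 0.28 and 0.26 with hormone and 0.53, 0.37 and 0.40 with vehicle, a mean difference of -0.15. The differences of the other 8 genes ran from 0.088 for rpl34 to 0.20 for rpl5a.

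Zebrafish keep more than 1 gene for several ribosomal proteins, and 8 ratios between such copies or near relatives were compared within each library, where depth drops out. The common level drops out as well only where both genes of a ratio follow it, which rps8b and rpl7l1 did not in hormone replicate 1. Nor did rps27.2 and rps27l follow it throughout. Of these, rps27.2 was lowest in vehicle replicate 2 (75.9 CPM, against 78.9 CPM in hormone replicate 1). The level of rps27l was 14.9 CPM in hormone replicate 3 and 21.3 to 23.2 CPM with vehicle. The L5 protein binds the 5S rRNA, carries it into the large subunit and, with L11, holds back Mdm2 when ribosome assembly fails. Counts of rpl5b were 61.3%, 64.7% and 60.8% of those of rpl5a with hormone and 82.4%, 75.6% and 77.3% with vehicle. The means were 62.2% ± 2.10 with hormone and 78.4% ± 3.51 with vehicle (SD, n = 3 each), so that the ratio with hormone was 0.794 of that with vehicle. The groups did not overlap, and the exact permutation p, two-sided, was 0.1, the lowest value possible with 3 libraries on each side, or 0.4 after Benjamini-Hochberg adjustment over the 8 ratios. On their own, rpl5a stood at 308, 525 and 441 CPM with hormone and 343, 358 and 467 CPM with vehicle, and rpl5b at 189, 339 and 268 CPM with hormone and 282, 271 and 361 CPM with vehicle, both overlapping.

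The summed rod markers split the libraries as the rpl5 ratio did, with every hormone library below the vehicle libraries. The summed RPE markers split them too, in the other direction (20312 to 56194 CPM with hormone and 16778 to 17349 CPM with vehicle). In mean log2 CPM the rod and RPE markers overlapped between the groups, as the inner retina markers did. On that scale the rod markers of hormone replicate 1 stood at 10.113, against 10.08, 10.111 and 9.88 with vehicle. The part of these markers in the ratio was not tested. For the S8 genes, counts of rps8b were 9.29%, 6.04% and 6.35% of those of rps8a with hormone and 5.48%, 5.38% and 4.80% with vehicle (means 7.23% ± 1.79 and 5.22% ± 0.37, SD, n = 3 each). These groups did not overlap either, with the same exact permutation p of 0.1 (0.4 adjusted), and hormone replicate 1, where rps8a was low and rps8b was not, was the highest.

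The 6 other ratios overlapped between the groups. Counts of rps26l were 134%, 153% and 145% of those of rps26 with hormone and 132%, 118% and 152% with vehicle, and those of rplp2l were 198%, 239.6% and 215% of those of rplp2 with hormone and 195%, 235% and 280.3% with vehicle. For rpl22l1 against rpl22 the means were 19.2% ± 2.60 with hormone and 19.4% ± 1.95 with vehicle (SD, n = 3 each). For rps27.2 against rps27.1 they were 61.5% ± 16.0 and 52.6% ± 10.1, for rps27l against rps27.1 8.49% ± 3.74 and 11.7% ± 1.97, and for rpl7l1 against rpl7 2.77% ± 1.02 and 2.77% ± 0.062, in each case hormone before vehicle. Exact permutation p ranged from 0.3 to 0.9 over these 6. The copies are close in sequence and short reads may have been shared between them, so their levels and ratios are uncertain. The 2 records of rps24, variants of 1 gene, kept a ratio of 40.8%, 42.9% and 45.3% with hormone and 43.8%, 43.0% and 44.8% with vehicle. The second record of rpl22l1 held 84.7% to 94.2% as many counts as the record used. The ratio of rpl22l1 to rpl22 leaves that second record out and so does not cover the whole gene.

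**Figure D4:**
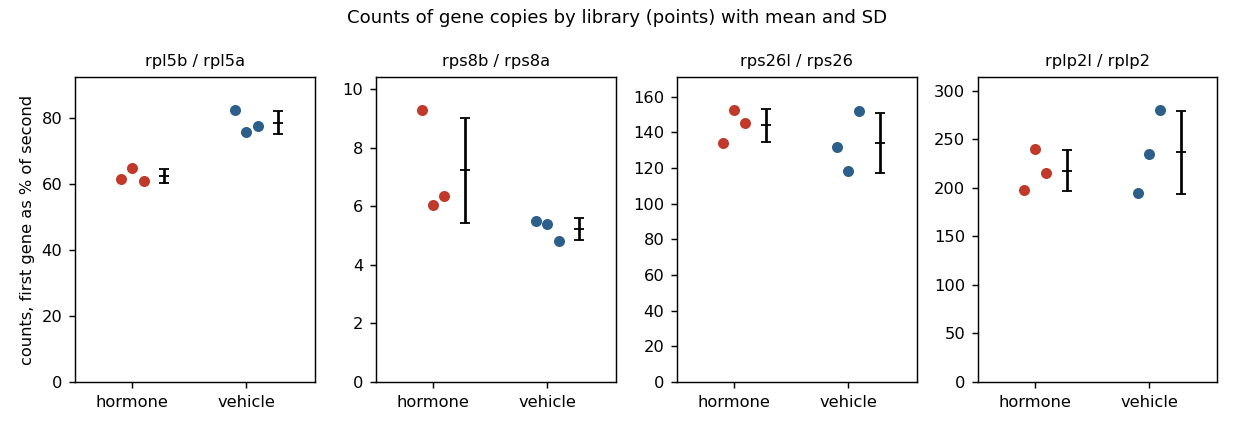
Counts of 1 gene copy as a percent of the other in each library (red hormone, blue vehicle), with the mean and SD in black, for the L5, S8, S26 and P2 genes; axes start at 0. The L5 ratio is lower in all hormone libraries (60.8% to 64.7%) than in any vehicle library (75.6% to 82.4%), while the S26 and P2 ratios overlap.

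Some genes for ribosomal proteins are listed under other names and fell outside the rule. The file lists 12 records under clone names whose accessions carry ribosomal protein symbols in current RefSeq, among them rpl17, rpl18, rpl22, rpl27a, rpl29, rpl31, rpl32, rps6, rps27.1, rps27.2 and rps27l. Their log2 fold changes ranged from -0.58 to 0.054, with 2 positive and 10 negative and a median of -0.076, while 51.8% of all records were positive. These signs are not independent, since most of these genes share the differences between libraries. None passed either test, where edgeR called 0.00546% and DESeq2 1.59% of all records. The gene rps6, whose protein is the known phosphorylation target of the S6 kinases, stood at 215, 411 and 358 CPM with hormone and 316, 289 and 416 CPM with vehicle. The lowest value of these 12 was that of rps27l, at 6.80, 22.8 and 14.9 CPM with hormone and 21.3, 22.6 and 23.2 CPM with vehicle (log2 fold change -0.58, SE 0.39). The gene rack1 (gnb2l1 in the file), for a scaffold on the small subunit, stood at 245, 488 and 417 CPM with hormone and 353, 348 and 481 CPM with vehicle. All of rps6, rps27l and rack1 were lowest in hormone replicate 1, like most members.

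Other parts of the translation machinery shared the library pattern to unequal degrees. Of 22 measured other genes listed as TOP mRNAs, 17 were lowest in hormone replicate 1, and of 15 elongation factor genes, 8 were (27% of all records). The TOP and elongation factor lists have 4 genes in common, all of them lowest in hormone replicate 1 and so counted in both. The median deviations in hormone replicate 1 on the log2 CPM scale were -0.53 and -0.41. The elongation factor gene eef1a1l1 (ef1a in the file), whose product brings aminoacyl-tRNA to the ribosome, stood at 2337, 5349 and 4096 CPM with hormone and 2865, 2726 and 4054 CPM with vehicle. For eef2b, whose product moves the ribosome along the mRNA, the values were 781, 1336 and 1121 CPM with hormone and 887, 883 and 1126 CPM with vehicle. The elongation factor list also holds the kinase gene eef2k, and the initiation factor list eif4ebp genes, for proteins that bind an initiation factor. The latter list and the TOP list share 3 genes. Among these, eif3f and eif3ha were lowest in hormone replicate 1 and so counted in both. Of 48 genes of the initiation factor list 21 were lowest in hormone replicate 1, with a median deviation of -0.12. Of these, eif3c, for a subunit of the factor that organises initiation on the small subunit, stood at 271 to 330.2 CPM with hormone and 280.0 to 290 CPM with vehicle, and eif1 (eif1b in the file), which helps to select the start codon, at 264 to 311 CPM with hormone and 260.3 to 300.02 CPM with vehicle.

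The 41 genes for mitochondrial ribosomal proteins did not follow: 7 were lowest in hormone replicate 1, and their median deviation there was 0.039. Their mRNAs encode the separate ribosome inside mitochondria. The most abundant, mrpl12, stood at 44.3, 25.5 and 29.5 CPM with hormone and 35.1, 33.0 and 26.9 CPM with vehicle, and mrpl23 at 24.8, 36.7 and 29.1 CPM with hormone and 25.4, 26.5 and 25.5 CPM with vehicle. Among 76 ribosome biogenesis genes 18 were lowest in that library, and among 22 genes of a list for RNA polymerase I, which makes the rRNA, 6 were (27% of all records). The second list also holds subunits shared with other polymerases and 4 myc genes, which encode transcription factors. Their most abundant genes were ncl, for nucleolin, at 126 to 169 CPM with hormone and 121 to 146 CPM with vehicle, and ubtf, for an activator of RNA polymerase I, at 78.6 to 97.3 CPM with hormone and 89.5 to 100.1 CPM with vehicle. Next to them, mdn1 stood at 108 to 131 CPM with hormone and 98.8 to 124 CPM with vehicle, and polr1a at 33.6 to 37.6 CPM with hormone and 33.8 to 41.0 CPM with vehicle. The lists also differed in abundance. In vehicle replicate 1 the median log2 CPM was 7.74 for the other TOP mRNAs, 7.61 for elongation factors and 5.54 for initiation factors. It was 3.83 for ribosome biogenesis, 3.08 for mitochondrial ribosomal proteins and 2.77 for the RNA polymerase I list. The part of abundance in the library pattern, and whether these lists differ from the cytosolic set beyond the spread, was not tested.

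With hormone against vehicle, edgeR called none of the genes in these 7 lists, with 0 to 5 per list at an unadjusted p under 0.05 (7.02% of all records). DESeq2, which called 1.59% of all records, called 1, the ribosome biogenesis gene wdr12, whose product works with Pes and Bop1 in large subunit assembly. It stood at 15.9, 18.7 and 13.8 CPM with hormone and at 9.28, 10.3 and 9.998 CPM with vehicle, with no overlap between the groups. Its log2 fold change was 0.71 (SE 0.17), at an adjusted p of 0.346 by edgeR and of 0.0467 by DESeq2. Median log2 fold changes were 0.081 for the mitochondrial ribosomal proteins (28 of 41 positive), 0.077 for elongation factors (11 of 15), 0.066 for initiation factors (34 of 48), -0.026 for the other TOP mRNAs (10 of 22), 0.10 for ribosome biogenesis (48 of 76), -0.031 for the RNA polymerase I list (10 of 22) and 0.043 for kinases and other regulators of translation (15 of 27), while 51.8% of all records were positive. In the last list larp1, for a protein that binds TOP mRNAs, stood at 37.1, 44.0 and 48.8 CPM with hormone and at 31.2, 29.8 and 33.5 CPM with vehicle. It was chosen after its values were seen. Its groups did not overlap, with a log2 fold change of 0.46 (SE 0.14) and an edgeR adjusted p of 0.549. The most abundant gene of that list, atf4a (atf4b1 in the file), for a transcription factor of the integrated stress response, stood at 276, 364 and 385 CPM with hormone and at 414, 403 and 469 CPM with vehicle. Every hormone library was below the vehicle libraries, with a log2 fold change of -0.33 (SE 0.18) and an edgeR adjusted p of 0.816. Its paralog atf4b stood at 223 to 271 CPM with hormone and 255 to 271 CPM with vehicle. In the list of larp1 and atf4a, 2 of 27 genes were apart with hormone above and 2 with hormone below. In that of wdr12, 11 of 76 were apart with hormone above and 4 with hormone below. Of all records 6.86% were apart with hormone above and 6.4% with hormone below.

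**Figure D5:**
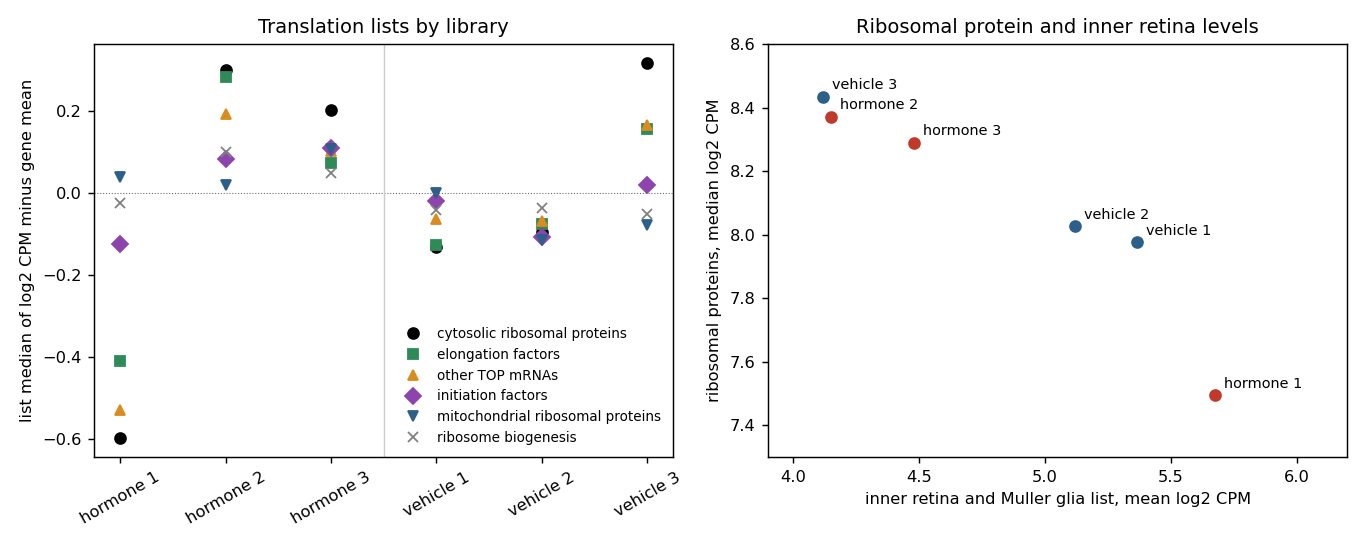
Left, the median over each translation list of log2 CPM minus the gene's mean, by library; right, the median log2 CPM of the 71 ribosomal protein genes against the mean log2 CPM of the inner retina and Muller glia markers, 1 point per library (red hormone, blue vehicle). Cytosolic ribosomal proteins, elongation factors and other TOP mRNAs are low in hormone replicate 1 (-0.60, -0.41 and -0.53), and mitochondrial ribosomal proteins are not (0.039). On the 2 log2 scales shown at right, the library order of the ribosomal proteins is the reverse of that of the inner retina markers.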

How the data were processed

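RNA of 6 zebrafish libraries was read from 1 table whose columns were matched to samples by title. Bowtie 0.12.7 and edgeR are named in the submitters' processing notes, without settings; how reads with several matches were counted was not stated. The authors deposited raw counts per RefSeq record. They also deposited RPKM per library as a score rounded to whole numbers, group means headed RPKM and FPKM, edgeR log2 fold changes (vehicle over hormone) and p-values. All scores and means equalled count over length and total within 0.6% and rounding. The nameless row of totals was left out. Each record reaches 1 CPM in 3 or more libraries, and filterByExpr removed none.

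Groups were compared by quasi-likelihood testing in edgeR 4.0.16 (R 4.3.3) with TMM scaling and Benjamini-Hochberg adjustment over all records at 0.05. The SE is the log2 fold change over the square root of F, and log2 CPM has a prior count of 2. Ratios of copies were compared by exact permutation tests (SciPy 1.17.1). Alternatives were RLE and total count scaling, DESeq2 1.42.0, a replicate block, no filter, the older quasi-likelihood fit, a threshold of 0.01, each library left out and other record choices; the inner retina covariate and other member sets were added after seeing the data. Fits were tested on simulated counts. Members and lists were chosen with earlier results of these data known. Genes named are the stalk genes and rpsa, copies, the 6 highest and 6 lowest log2 fold changes, the 5 most and least abundant per length, and up to 2 abundant genes of other lists or those past a test; rpl39, larp1, rack1, rps6, rps27l and the genes apart on the relative scale were named besides. A few genes that these rules reach are not reported here. Of the 73 accessions 72 matched the RefSeq table of assembly GRCz12tu. Counting error weighs most at low counts: 3 counts equal 0.238 to 0.400 CPM. It also limits rps19bp1, rpl7l1 and rps27l, whose lowest library counts were 59, 47 and 51.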

Additional observations from a re-analysis of the deposited data

How the results depend on the processing

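None of the 71 genes passed in any fit run. The count of all records called was 1 with all libraries, 8 with total count scaling, 292 with DESeq2, 496 with the inner retina covariate, 0 at a threshold of 0.01 and 0 to 119 with 1 library left out. Deviations of hormone and vehicle libraries of the same number correlated at 0.463, -0.395 and 0.105 for replicates 1, 2 and 3. Not every library correlated best with its own number. With so few libraries these correlations cannot show whether the same number marks a pair. With the replicate block 0 records passed, with 1266 at an unadjusted p under 0.05. The number of genes with a positive log2 fold change, 26, was 11 with total count scaling, 16 with the replicate block, 8 with the inner retina covariate and 4 to 68 with 1 library left out. The median log2 fold change ranged from -0.18 to 0.20 and the difference in count share from -0.37 to 0.10 percentage points, hormone minus vehicle. The cause of these shifts was not tested. DESeq2 called 1 ribosome biogenesis gene. Signs turned for rplp2, rps26l, rpl26 and rpl37 with total count scaling (-0.068, -0.066, -0.019 and -0.045) and with the covariate (-0.089, -0.093, -0.051 and -0.042), for rplp2 and rps26l with the replicate block (-0.041 and -0.031), and for rpl6 with RLE scaling and DESeq2 (0.0020 in both). With 1 library left out the log2 fold change ranged from -0.19 to 0.24 for rplp1, -0.14 to 0.25 for rplp2, -0.32 to 0.17 for rplp2l, -0.29 to 0.17 for rpsa, -0.16 to 0.26 for rps26l, -0.26 to 0.00047 for rpl7l1, -0.052 to 0.31 for rpl5a, -0.27 to 0.15 for rps8a, -0.24 to 0.12 for rps26, -0.21 to 0.15 for rpl7, -0.12 to 0.37 for rpl15, -0.30 to 0.12 for rpl23, -0.28 to 0.011 for rpl30, -0.36 to 0.0045 for rpl19, -0.15 to 0.29 for rpl26, -0.091 to 0.31 for rps4x, -0.16 to 0.25 for rpl6 and -0.16 to 0.29 for rpl37. It kept its sign for rplp0 (0.13 to 0.49), rps8b (0.26 to 0.41), rps19bp1 (0.18 to 0.26), rpl35a (0.0010 to 0.45), rpl5b (-0.41 to -0.0040) and rpl22l1 (-0.46 to -0.051).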
